A study of Mus musculus with 8 samples.

Results

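S1pr1, S1pr2, S1pr4, Gpr183, Cd44 and Cd69 encode receptors that retain T cells in lymph nodes, let them leave or place them within the tissue. The 6 genes were taken by their names in the array files from 29924 gene names on the array. Of these names, 15764 were tested and 13299 were well above background on all 8 arrays. All 6 genes were tested and all 6 were well above background on all 8 arrays. T cells came from pLN (peripheral lymph nodes) of mice of the strain B6.Cg-Foxp3<tm1Mal>, which express EGFP from the Foxp3 locus, so that GFP marks Foxp3+ cells. All mice received keyhole limpet hemocyanin (KLH) in alum s.c., and no group without this immunization was analysed here. Cells from 8 to 15 mice of mixed gender, aged 8 to 14 weeks, were pooled for a sort, and 25 ng of RNA was used. The DAPI− B220− CD4+ cells were separated into naïve CD4 T (GFP− PD1−/lo GL7−), TFH (GFP− PD1hi GL7+), Treg (GFP+ PD1− GL7−) and TFR cells (GFP+ PD1hi GL7+/−). Each cell type had 1 array at d12 and 1 at d25 p.i., and each array carried the RNA of a pool.

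S1P receptors read a gradient of the lipid sphingosine 1-phosphate, which is high in blood and lymph and low inside lymphoid tissue. S1PR1 lets T cells leave the node, S1PR2 inhibits migration and holds cells in the germinal center, and S1PR4 is a further S1P receptor of lymphocytes. GPR183 (EBI2) follows oxysterols to the outer follicle, CD44 binds hyaluronan and is high on antigen-experienced T cells, and CD69, an early activation antigen, binds S1PR1 and removes it from the cell surface.

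In TFH against naïve CD4 T cells, the largest differences among the 6 genes were those of S1pr1 and S1pr2, and they went in opposite directions. TFH cells had 21.7-fold less S1pr1 and 24.7-fold more S1pr2 than naïve CD4 T cells, whereas TFR cells had 9.21-fold less S1pr1 and 2.42-fold more S1pr2 than Treg cells. Under 18 changes of the processing, test or arrays, the log2 difference of S1pr1 in TFH against naïve CD4 T cells was -4.58 to -4.18. That of S1pr2 was 3.93 to 4.85, so the size of both folds depends on these choices. S1pr4 was lower and Cd44 higher in both follicular cell types than in their non-follicular counterparts. Gpr183 did not pass the test in either comparison, and Cd69 passed between TFR and Treg cells. Differences were fitted on the log2 scale with limma and adjusted by Benjamini-Hochberg over all tested genes, and a gene was called at an adjusted p below 0.05. Each difference is given with its SE (n = 2 arrays per cell type).

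Between TFH and naïve CD4 T cells 4 of the 6 genes were called, 2 higher and 2 lower, where 46.5% of all tested genes were called, 20.9% higher and 25.6% lower. Between TFR and Treg cells 5 were called, 2 higher and 3 lower, against 39.6% of all genes, 18.7% higher and 20.9% lower. Between TFR and TFH cells 4 were called (22.1% of all genes), between Treg and naïve CD4 T cells 1 (9.88%), between TFR and naïve CD4 T cells 4 (53.1%) and between TFH and Treg cells 5 (39.8%). The follicular change itself, TFR minus Treg against TFH minus naïve CD4 T, differed for 2 genes (8.49% of all genes). None of the 6 was called between d25 and d12, where 0.0698% of all genes were called. Since large shares of all genes were called, these counts are not read as particular to the 6 genes, which are described by their values.

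**Figure D1:**
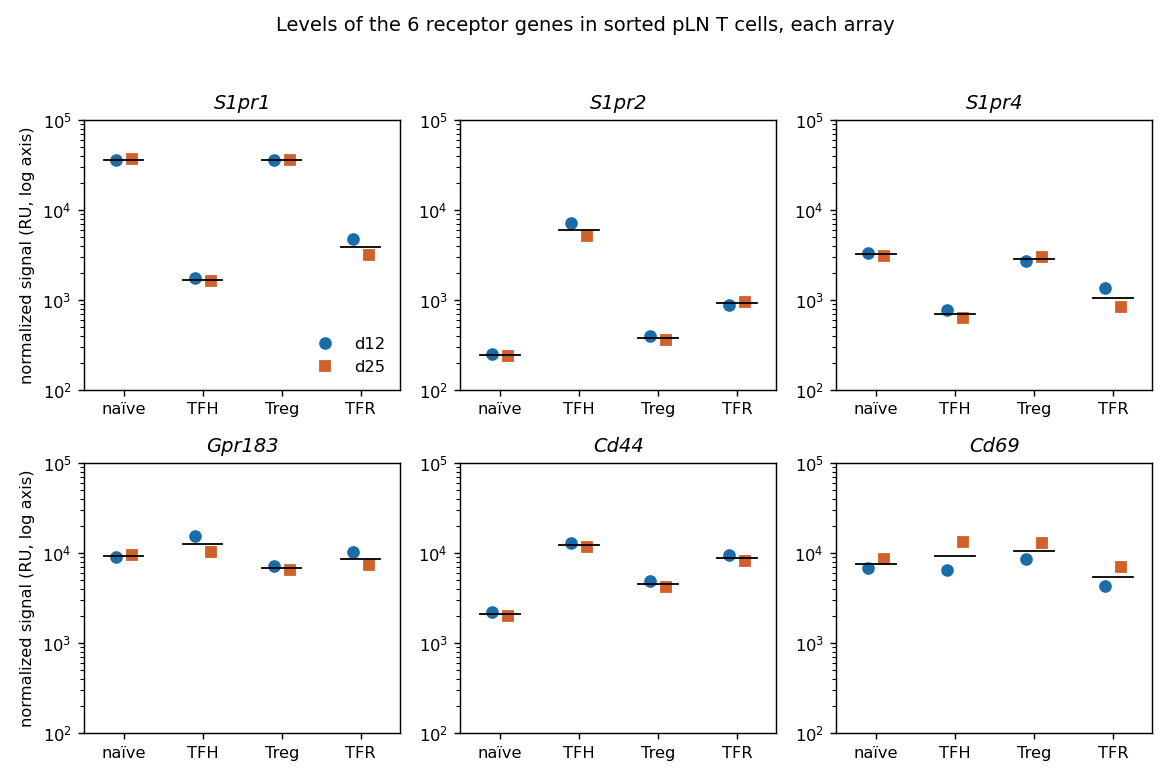
Normalized signal in relative units (RU) on a log axis for each of the 6 genes in the 4 cell types. Circles are d12 arrays, squares are d25 arrays, and the bar is their geometric mean. S1pr1 is at 35471 RU or above on the 4 arrays of naïve CD4 T and Treg cells and at 4777 RU or below on the 4 follicular arrays. Levels of different genes come from different probes and are not comparable with each other.

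S1pr1, the receptor that lets T cells follow S1P out of the node, was read by a probe at chr3:115414020-115414079 (minus strand, NCBI37), whose first 30 bases show which stretch of the transcript the signal stands for.
S1pr1 probe: aagatgaaaatgtgttccttttttgtcaca
The naïve CD4 T arrays gave 35738 RU at d12 and 36933 RU at d25, and the Treg arrays gave 35471 and 35780.4 RU. The TFH arrays gave 1753 and 1603 RU, and the TFR arrays 4777 and 3132 RU. The levels thus fell into a high pair and a low pair of cell types without overlap, and within the low pair both TFR arrays lay above both TFH arrays. The log2 difference was -4.44 ± 0.18 for TFH against naïve CD4 T cells (adjusted p = 0.000209) and -3.20 ± 0.18 for TFR against Treg cells (adjusted p = 0.000838). In these sorted pools fewer cells with the transcript and less transcript per cell cannot be told apart.

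Treg and naïve CD4 T cells, the high pair, differed by -0.03 ± 0.18 (adjusted p = 0.95) with a 95% interval from -0.51 to 0.45. In the low pair S1pr1 was 2.31-fold higher in TFR than in TFH cells (1.21 ± 0.18, adjusted p = 0.0137), with 1.45 at d12, where both shared a slide, and 0.97 at d25, where they did not. This call was lost when the TFH array of d12 (adjusted p = 0.0592) or of d25 (adjusted p = 0.0658) was left out, with slide as a block (adjusted p = 0.052), and without a filter on dim probes (adjusted p = 0.0778). The fall from non-follicular to follicular cells was smaller among Foxp3+ cells by 1.23 ± 0.26, which did not pass the test (adjusted p = 0.057) and did so when the TFR array of d25 was left out (adjusted p = 0.0484) and under 4 other settings of the processing (adjusted p = 0.0238 to 0.0456).

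S1pr4, the other S1P receptor that was lower in follicular cells, showed the same order of cell types with smaller steps. Its signal (d12, then d25) was 3319.8 and 3089 RU for naïve CD4 T, 2703 and 2983 RU for Treg, 1351 and 830.2 RU for TFR and 767 and 633 RU for TFH cells. No follicular array reached the lowest non-follicular array. The log2 differences were -2.20 ± 0.21 for TFH against naïve CD4 T cells (adjusted p = 0.00163) and -1.42 ± 0.21 for TFR against Treg cells (adjusted p = 0.00801). The latter call was lost without a filter on dim probes (adjusted p = 0.0518). Neighbours in this order did not differ beyond the test within the high pair (-0.17, adjusted p = 0.656) or within the low pair (0.60, adjusted p = 0.109). In TFR cells the fall relative to Treg cells was 1.00 at d12 and 1.85 at d25 on the log2 scale, the widest gap between the days that S1pr4 showed. In sum the 2 CD8 T cell markers were lower in both follicular cell types, as S1pr1 and S1pr4 were. These markers summed to 4957 to 5118 RU in naïve CD4 T, 4208 to 4565 RU in Treg, 2114 to 3174 RU in TFH and 2110.05 to 2235 RU in TFR cells. At d25 their sum was higher in TFH than in TFR cells, the reverse of both receptors. Cd8b1 was called lower in both follicular comparisons and Cd8a in TFR against Treg cells, and their part in the values of both receptors was not tested.

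S1pr2, which couples to G12 and G13 proteins and inhibits movement, had the opposite pattern and was read at chr9:20770729-20770788 (minus strand, NCBI37); the first 30 bases of its probe identify the stretch.
S1pr2 probe: tcctgtggagaaatagaaaaatccaatacg
Naïve CD4 T cells had 249 RU at d12 and 239 RU at d25, and Treg cells had 396 and 359 RU. TFH cells had 7094 and 5105 RU, and TFR cells had 879 and 944 RU. No array of any cell type overlapped with that of another, and TFH cells stood far above the rest. The log2 difference was 4.63 ± 0.16 for TFH against naïve CD4 T cells (adjusted p = 0.000159), 1.27 ± 0.16 for TFR against Treg cells (adjusted p = 0.00476) and -2.72 ± 0.16 for TFR against TFH cells (adjusted p = 0.00114). The last value is a level in TFR cells 6.61-fold below that of TFH cells. Treg and naïve CD4 T cells, the lowest neighbours, differed by 0.63 ± 0.16 (adjusted p = 0.0757), a difference that passed the test when either TFH array was left out (adjusted p = 0.0366 for both).

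The follicular change of S1pr2 was smaller among Foxp3+ than among Foxp3− cells, with a difference of -3.35 ± 0.22 on the log2 scale (adjusted p = 0.00444), and this call held under all 17 alternatives that allow it. On d12 S1pr2 rose by 4.83 from naïve CD4 T to TFH cells and by 1.15 from Treg to TFR cells, and on d25 by 4.42 and 1.39. The difference between both changes was therefore present on each day, and on each day TFH and naïve CD4 T cells shared a slide, as did TFR and Treg cells.

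Since S1pr2 is known from germinal center B cells, markers of B cells were read beside it. The 8 B cell markers summed to 1721 RU at d12 and 12890 RU at d25 in TFH cells, while S1pr2 was higher at d12 than at d25. Their sums were 4565 to 5566 RU in naïve CD4 T, 8059 to 8801 RU in Treg and 4659 to 6771 RU in TFR cells, and Pax5 was never well above background, at 20.3 RU or below. The 2 germinal center markers summed to 7911 to 8296 RU in TFH cells, 507 to 558 RU in TFR cells, 284 to 391 RU in naïve CD4 T and 181 to 186 RU in Treg cells. Nearly all of the signal in TFH cells was Mef2b (7881 and 7869 RU), whereas Rgs13 was not well above background at d12 and at 426 RU at d25. The part of other cells in the S1pr2 signal was not tested.

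**Figure D2:**
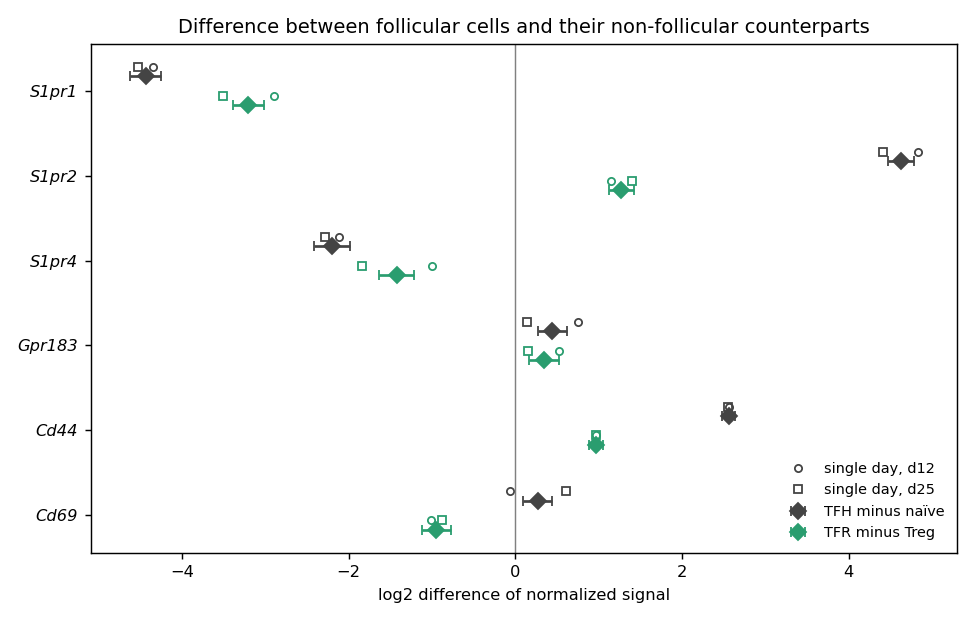
Log2 difference of each gene, TFH minus naïve CD4 T cells (dark) and TFR minus Treg cells (green). Diamonds are the estimates over both days with their SE (n = 2 arrays per cell type), and open symbols are the values of single days. For every gene except Cd69 the green value lies between 0 and the dark value.

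Gpr183, the oxysterol receptor that guides cells to the outer follicle, varied least over the 8 arrays. Naïve CD4 T cells had 9107 RU at d12 and 9428 RU at d25, and TFH cells had 15310.4 and 10401 RU. Treg cells had 7106 and 6563 RU, and TFR cells had 10237 and 7318 RU. The TFH arrays lay above those of naïve CD4 T cells and the TFR arrays above those of Treg cells, by 0.75 and 0.53 at d12 but by 0.14 and 0.16 at d25 on the log2 scale. Over both days the differences were 0.45 ± 0.18 (adjusted p = 0.0993, 95% interval from -0.02 to 0.91) and 0.34 ± 0.18 (adjusted p = 0.188, 95% interval from -0.12 to 0.81).

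The order of Gpr183 levels was TFH, naïve CD4 T, TFR and Treg cells, and no pair of neighbours in this order differed beyond the test (adjusted p = 0.0993, 0.671 and 0.188). Only the ends of the order did, with TFH cells 1.85-fold above Treg cells (0.89 ± 0.18, adjusted p = 0.0172). This call was lost when the TFH array of d12 (adjusted p = 0.0743), the Treg array of d12 (adjusted p = 0.103) or the Treg array of d25 (adjusted p = 0.0672) was left out. It was also lost with slide as a block (adjusted p = 0.0809), by Tukey's test within the gene (adjusted p = 0.0915) and without a filter on dim probes (adjusted p = 0.0835). The follicular changes of Gpr183 differed between Foxp3+ and Foxp3− cells by -0.10 ± 0.25 (adjusted p = 0.842).

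Cd44, the hyaluronan receptor, is spliced from constant exons and a block of variable exons between them, and 4 probes on the array read different stretches of it. The 3 probes shown here separate a constant from a variable part of the transcript, and all lie on the minus strand of chromosome 2 (NCBI37). The constant part is the end of the coding sequence at chr2:102654278-102654337, where the capitals mark the stop triplet, and the variable stretches lie at chr2:102677971-102678030 and chr2:102672645-102672704.
Cd44 end of the coding sequence: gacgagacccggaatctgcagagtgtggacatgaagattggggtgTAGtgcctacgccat
Cd44 variable stretch 1: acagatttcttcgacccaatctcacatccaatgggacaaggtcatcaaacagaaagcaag
Cd44 variable stretch 2: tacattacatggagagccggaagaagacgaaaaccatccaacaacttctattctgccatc
The fourth probe lies further downstream, near the 3′ end of the transcript at chr2:102651398-102651457.

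At the end of the coding sequence, the brightest probe and therefore the main value, Cd44 gave 2213 RU at d12 and 1999 RU at d25 for naïve CD4 T cells, and 4899.9 and 4184 RU for Treg cells. The TFH arrays gave 13052 and 11757 RU, and the TFR arrays 9572 and 8182 RU. The 4 cell types did not overlap and formed a ladder from naïve CD4 T through Treg and TFR to TFH cells. The log2 difference was 2.56 ± 0.08 for TFH against naïve CD4 T cells (adjusted p = 0.000139), 0.97 ± 0.08 for TFR against Treg cells (adjusted p = 0.00197) and 1.11 ± 0.08 for Treg against naïve CD4 T cells (adjusted p = 0.00317). Cd44 was thereby the only one of the 6 genes called between Treg and naïve CD4 T cells, where the other differences ranged from -0.44 to 0.63.

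The upper step of the ladder was the smallest, with TFR cells at -0.49 ± 0.08 against TFH cells (adjusted p = 0.0174). This call was lost when the TFR array of d12 (adjusted p = 0.105), the TFR array of d25 (adjusted p = 0.114) or the TFH array of d25 (adjusted p = 0.0622) was left out, as well as without a day term (adjusted p = 0.085), with slide as a block (adjusted p = 0.0949) and by Tukey's test within the gene (adjusted p = 0.0751). The follicular change was smaller among Foxp3+ than among Foxp3− cells as well (-1.59 ± 0.11, adjusted p = 0.00532). It was 2.56 in TFH cells on both days and 0.97 in TFR cells on both days, and the call held under all 17 alternatives.

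The probe at the 3′ end gave the same order of cell types within each day. Its signal (d12, then d25) was 1329.7 and 1924 RU for naïve CD4 T and 2616 and 3246 RU for Treg cells. TFR cells had 3861 and 5992 RU and TFH cells 5844 and 12339 RU. Unlike at the main probe, TFR and TFH cells overlapped, since the d25 TFR array lay above the d12 TFH array. Here the log2 differences were 2.41 for TFH against naïve CD4 T cells (adjusted p = 0.000984) and 0.72 for TFR against Treg cells (adjusted p = 0.0398). The difference between both changes was -1.69 (adjusted p = 0.031), and Treg against naïve CD4 T cells no longer passed (0.87, adjusted p = 0.0615). The probes disagreed on the days, since all 4 cell types were higher at d25 at the 3′ end and lower at d25 at the end of the coding sequence.

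The variable stretches gave almost no signal. Stretch 1 was well above background on 1 of 8 arrays, TFH cells at d25 with 86.9 RU. It gave 27.1 RU for the d12 TFH array, 21.6 RU for the d25 TFR array and was at the floor of 20 RU on the other 5 arrays. Stretch 2 never rose well above background, with 35.0 RU in Treg cells at d25 and the floor on the other 7. Levels of different probes are not set against each other here, so the share of transcripts that contain these stretches was not estimated.

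**Figure D3:**
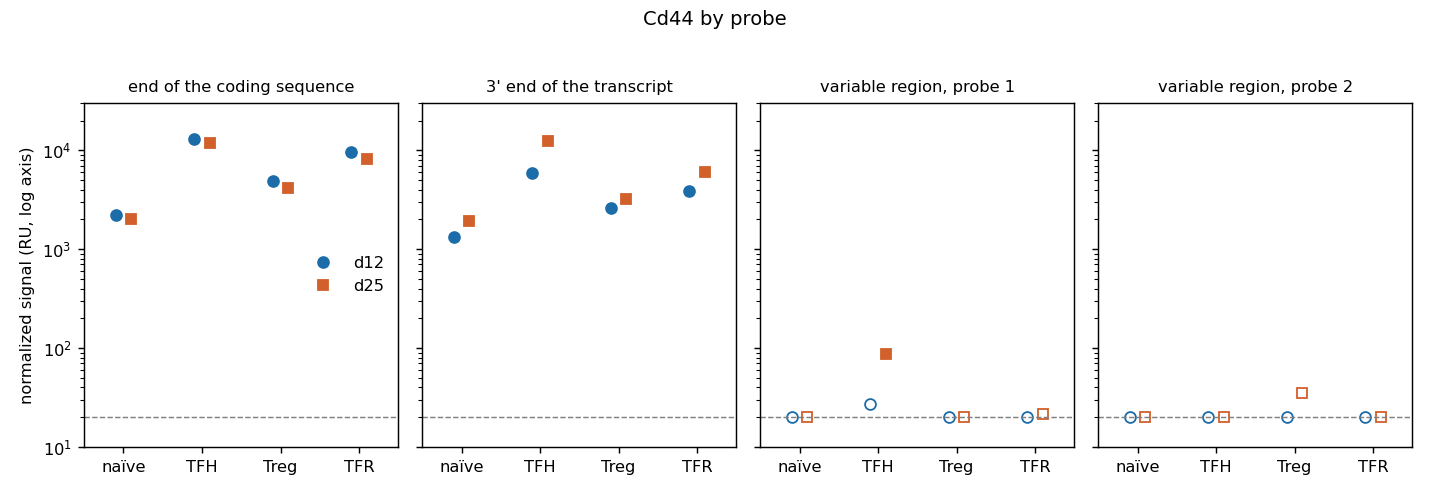
Normalized signal (RU, log axis) of the 4 Cd44 probes in each cell type, with circles for d12 and squares for d25. Filled symbols are well above background, open symbols are not, and the dashed line is the floor of 20 RU. The first 2 probes are filled on all 8 arrays, whereas the variable stretches have a single filled symbol, TFH cells at d25.

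Cd69, the activation antigen that counteracts S1PR1, gave 6762 RU at d12 and 8670.0 RU at d25 for naïve CD4 T cells, and 6442 and 13232 RU for TFH cells. The Treg arrays gave 8597 and 12923 RU, and the TFR arrays 4267 and 6995 RU. The arrays of the cell types overlapped widely. TFR cells were the lowest within each day, but at d25 they lay above the d12 values of both GFP− cell types. Cd69 in TFR cells was 1.93-fold below that of Treg cells (-0.95 ± 0.17, adjusted p = 0.0142) and 1.69-fold below that of TFH cells (-0.76 ± 0.17, adjusted p = 0.0408). In TFH against naïve CD4 T cells the difference was 0.27 ± 0.17 (adjusted p = 0.259), with -0.07 at d12 and 0.61 at d25.

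Both Cd69 calls were lost in omissions of single arrays. In these omissions 1 array of the cell type remained, and fewer of all genes were called in the same comparison. Against Treg cells the adjusted p rose to 0.0904 and 0.0707 without the Treg arrays of d12 and d25 and to 0.0935 and 0.0843 without the corresponding TFR arrays, although the difference itself stayed between -1.01 and -0.89. Against TFH cells the call was lost in the same 4 omissions (adjusted p = 0.0827, 0.0827, 0.206 and 0.174) and without the TFH array of d25 (-0.51, adjusted p = 0.114). Without a day term the adjusted p was 0.153 and 0.312, and without a filter on dim probes it was 0.0714 and 0.154. Tukey's test within the gene gave 0.365 and 0.517, and slide as a block gave 0.16 for the comparison with TFH cells.
The difference of TFR from naïve CD4 T cells (-0.49 ± 0.17, adjusted p = 0.0691) was called when either TFH array was left out (adjusted p = 0.0322 for both), with 75th percentile scaling alone (adjusted p = 0.0331) and with an intensity trend in eBayes (adjusted p = 0.0385). Estimated over both days, the follicular changes of Cd69 had opposite signs and differed by -1.22 ± 0.25 (adjusted p = 0.0527), which passed without the TFH array of d12 (-1.46, adjusted p = 0.04) and under 4 other settings (adjusted p = 0.0213 to 0.0429). Markers of proliferation summed to 10809 to 12219 RU in TFR and 4334 to 6196 RU in TFH cells. In Treg cells they summed to 1692 to 1882 RU and in naïve CD4 T cells to 768 to 1030 RU. These sums were highest in TFR cells, where Cd69 was lowest within each day. They were lowest in naïve CD4 T cells, where Cd69 was not the highest on either day. The part of proliferation in the Cd69 values was not tested.

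Between the days Cd69 moved more than the other 5 genes. It was higher at d25 in all 4 cell types, by 0.36 in naïve CD4 T, 1.04 in TFH, 0.59 in Treg and 0.71 in TFR cells on the log2 scale. Over all cell types the difference was 0.67 ± 0.12, which did not pass after adjustment (limma, adjusted p = 0.0739, unadjusted p = 0.00302). The other genes differed by -0.28 to -0.14 between the days, and Cd44 was the only other gene with the same sign in all 4 cell types (-0.19 ± 0.06, limma adjusted p = 0.125, unadjusted p = 0.0227). All d12 arrays lay on 1 slide and the d25 arrays on 2 others, so day and slide cannot be told apart.

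Early response genes, which are read beside Cd69 as they answer stimulation and handling of cells, were called in both directions. Of 9 tested, 4 were higher and 2 lower for TFH against naïve CD4 T cells, and 3 were higher and 2 lower for TFR against Treg cells. In these comparisons 46.5% and 39.6% of all tested genes were called. Egr2 rose (2.52 and 1.31, adjusted p = 0.000241 and 0.00214) and Dusp1 rose (1.70 and 1.18, adjusted p = 0.000884 and 0.00384), whereas Jun fell by 1.62 and 2.22 (adjusted p = 0.0112 and 0.00596). The summed level of the 10 genes was 34943 RU at d12 and 43375 RU at d25 in naïve CD4 T, 62403 and 72117 RU in TFH, 51872 and 60274 RU in Treg and 65119 and 78882 RU in TFR cells. It was higher at d25 in every cell type, as Cd69 was, and most of it came from the bright genes Nr4a1, Egr1 and Egr2. Other genes of the list went the other way between the days. Jun was lower at d25 in all 4 cell types, and Fos and Fosb were lower at d25 in TFH, Treg and TFR cells, with Fosb at 1202 and 295 RU in TFH cells. Junb was lower at d25 in all cell types but TFR. The part of the early response in the Cd69 values was not tested.

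**Figure D4:**
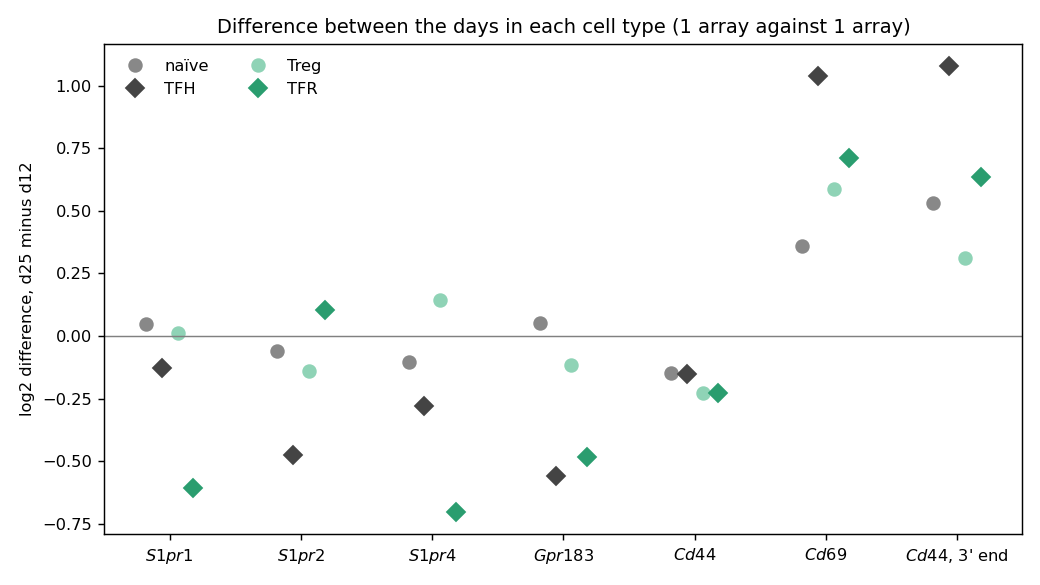
Log2 difference between the d25 and the d12 array of each cell type for the 6 genes and, at the right, for the Cd44 probe at the 3′ end. Each point is 1 array against 1 array and has no replicate. Cd69 and the 3′ end of Cd44 are above 0 in all 4 cell types, and the main Cd44 probe is below 0 in all 4.

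Of 13 other genes of the S1P pathway, 7 were tested and 6 did not pass the filter on dim probes. Among the tested genes 2 were higher and 1 lower in each follicular comparison, where 46.5% (TFH) and 39.6% (TFR) of all tested genes were called. The median log2 difference was 0.33 (TFH) and 0.06 (TFR) where the median of all genes was -0.07 and -0.08. Sgpp1, an S1P phosphatase, fell by 0.81 in TFH and by 1.01 in TFR cells (adjusted p = 0.00202 and 0.00195). Sgpl1, the S1P lyase, rose in TFH cells (0.45, adjusted p = 0.017) and differed by 0.09 in TFR cells (adjusted p = 0.478). Ppap2a (Plpp1), a lipid phosphate phosphatase, was not well above background in naïve CD4 T cells and was at 320 and 769 RU in TFH, 333 and 339 RU in Treg and 2514 and 2956 RU in TFR cells. Its relative Ppap2c (Plpp2) was higher in TFR than in Treg cells (1.39, adjusted p = 0.0089).

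Of 4 enzymes around the oxysterol ligand of GPR183, Ch25h, Cyp7b1 and Cyp27a1 were not tested since their probes did not pass the filter. Hsd3b7, which degrades the ligand, was at 870 and 1303 RU in TFR cells and at 167 to 326 RU on the other 6 arrays. It was higher in TFR than in Treg cells (1.85 ± 0.26, adjusted p = 0.00689) and than in TFH cells (2.55 ± 0.26, adjusted p = 0.00474). Gpr183 itself passed the test in neither comparison.

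All 15 genes for G proteins and their partners downstream of these receptors were tested, of which 4 were higher and 5 lower for TFH against naïve CD4 T cells, and 3 higher and 7 lower for TFR against Treg cells. The median difference was -0.13 and -0.05, and the shares called over all tested genes were 46.5% and 39.6%. The 3 genes higher in both comparisons encode G protein alpha subunits. Gna13 and Gna12, through which S1PR2 signals, rose by 1.46 and 1.38 in TFH cells (adjusted p = 0.00086 and 0.00266) and by 0.40 and 0.74 in TFR cells (adjusted p = 0.0444 and 0.0212). Gnaq was not well above background in naïve CD4 T cells and rose from Treg to TFR cells by 2.06 (adjusted p = 0.0018). Arhgef1, a guanine nucleotide exchange factor that G13 activates, fell by 1.05 and 0.69 (adjusted p = 0.00243 and 0.0107), and Grk6, a receptor kinase, fell by 0.95 and 0.69 (adjusted p = 0.0025 and 0.0087). Gna13 was also the G protein gene that was lower in TFR than in TFH cells (-0.82, adjusted p = 0.00998), together with Rac2 (-0.43, adjusted p = 0.0304).

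Among 6 factors that act on these genes or on homing, 1 was higher and 2 lower in TFH cells and 3 were higher and 2 lower in TFR cells than in their counterparts (medians -0.28 and 0.62). Of all tested genes, 46.5% and 39.6% were called. Klf2, which drives S1pr1 transcription, and Foxo1, which drives Klf2, were lower in both. The differences of Klf2 were -4.35 and -2.43 (adjusted p = 0.000305 and 0.00245), and Foxo1 fell by 1.34 in TFH and by 0.81 in TFR cells on the log2 scale (adjusted p = 0.00132 and 0.00782). Prdm1 and Tbx21 were higher in TFR than in Treg cells (1.38 and 1.85, adjusted p = 0.0093 and 0.0042) but did not pass in the other comparison, TFH against naïve CD4 T cells (-0.70 and 0.34).

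All 9 other homing receptors differed between TFH and naïve CD4 T cells, of which 5 were higher and 4 lower, and 7 differed between TFR and Treg cells, 4 higher and 3 lower (medians 0.48 and -0.24). The shares called over all tested genes were 46.5% and 39.6%. The differences of Ccr7, the chemokine receptor that brings T cells into the T cell zone, were -4.81 and -2.36 (adjusted p = 0.000212 and 0.00208). The receptors Cxcr4 and Itgb1 rose in both comparisons, by 3.52 and 1.62 in TFH and by 2.01 and 1.17 in TFR cells. Unlike S1pr2 and Cd44, Itgb1 was higher in TFR (9436 and 11903 RU) than in TFH cells (6546 and 5986 RU). Itga4 and Itgb2 were called in TFH cells and not in TFR cells (adjusted p = 0.068 and 0.0676), and the difference between both changes passed for Itgb2 (-0.71, adjusted p = 0.0276) and not for Itga4 (2.06, adjusted p = 0.0603). The plot of both follicular changes shows every one of the 15 genes except Cd69 and Itgb2 with the same sign in both comparisons.

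**Figure D5:**
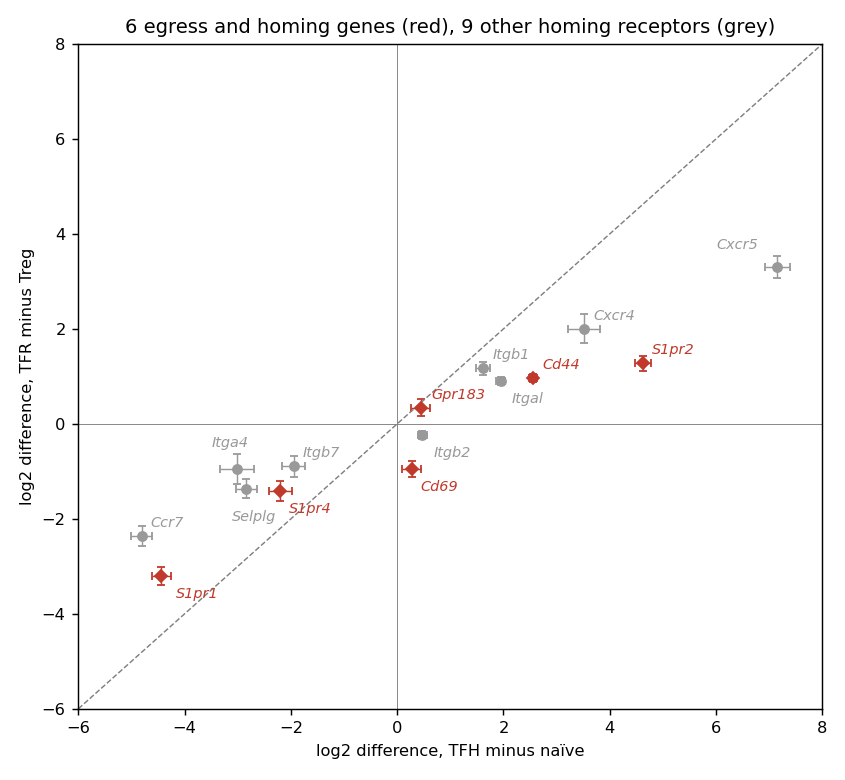
Log2 difference between TFH and naïve CD4 T cells (horizontal) against that between TFR and Treg cells (vertical), with SE bars (n = 2 arrays per cell type). The 6 receptor genes are red, 9 other homing receptors are grey, and the dashed line marks equal differences. S1pr1 lies near Ccr7 at the lower left, and S1pr2 at 4.63 and 1.27 lies furthest from the line among the red genes.

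Around CD44, the hyaluronan synthases Has1, Has2 and Has3 were not tested because they were dim. Of the 8 tested genes for hyaluronan handling and the linkage of CD44 to actin, 2 were higher and 3 lower in TFH cells and 3 were higher and 3 lower in TFR cells (medians -0.07 and -0.02). Over all tested genes 46.5% and 39.6% were called. The lower genes were the same in both, the ERM linkers Ezr (-0.54 and -0.73), Rdx (-1.09 and -0.67) and Msn (-0.43 and -0.49), whose largest adjusted p was 0.0349. Nf2 (merlin), a relative that binds the same tail of CD44, was higher (1.27 and 1.16, adjusted p = 0.00708 and 0.0118), as was the hyaluronidase Hyal2 (0.65 and 0.46, adjusted p = 0.00355 and 0.0128). Of the myosin light chains that bind CD69, 2 of 3 were tested, and Myl12a was higher in TFH cells (0.41, adjusted p = 0.0194).

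For each of the 6 genes the most similar profiles over the 8 arrays were sought by the root mean square difference of gene-centered log2 values among 10884 genes. For S1pr1, Treml2 (0.32) and Klf2 (0.35) were among the 3 closest, and S1pr4 was followed most closely by Cd7 (0.14), Rasa3 (0.16) and Rab3ip (0.19). For S1pr2 they were Hes5 (0.29), Smox (0.44) and Ikzf3 (0.44), and for Cd44 St3gal2 (0.19), Zfp821 (0.19) and Dcxr (0.23). For Gpr183 they were Rph3al (0.12), Eid1 (0.12) and Fam193b (0.13), and for Cd69 Mis12 (0.16), Sf3b1 (0.16) and Nxt2 (0.17). A small distance is easily reached for Gpr183 and Cd69, whose own root mean square deviations were 0.37 and 0.51, compared with 1.96 for S1pr1 and 1.78 for S1pr2.

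Foxp3, Lrrc32 and Il2ra of the 5 Treg markers followed the labels, and Ikzf2 and Ctla4 were high in TFH cells too. Foxp3 was at 37266 to 49262 RU in Treg and TFR cells and at 65.5 to 358 RU in the GFP− cells. Ikzf2 was at 10506 and 10814 RU in TFH cells and at 9925 and 11103 RU in Treg cells, and Ctla4 at 7083 and 8995 RU in TFH and 8109 and 10125 RU in Treg cells. The 5 Treg markers summed to 17943 to 20227 RU in TFH cells and 1276 to 1390.4 RU in naïve CD4 T cells, and to 110402 RU or more in Treg and TFR cells. The 5 follicular markers summed to 239291 RU or more in TFH and TFR cells and to 52367 RU or less in the others. The 5 CD4 T cell markers were well above background on all 8 arrays. Of other cells, the 4 markers of antibody-secreting cells summed to 759 to 7831 RU and 6 myeloid markers to 1056 to 2454 RU with Cd14 never well above background. The 3 NK cell markers summed to 1615 to 3201 RU in TFH cells, nearly all of it Klrb1c, and to 141 to 878 RU elsewhere, with Ncr1 never well above background. Of 4 endothelial markers only Pecam1 was well above background, and it was lower in TFR cells (637 and 866 RU) than in Treg (2534 and 3484 RU, limma adjusted p = 0.000755) and TFH cells (1776 and 2124 RU, limma adjusted p = 0.00237). The 3 stromal markers summed to 323 to 480 RU in TFR, 91.8 to 259 RU in TFH, 112 to 122 RU in Treg and 96.0 to 108 RU in naïve CD4 T cells, with Pdgfrb at the floor on all 8 arrays. Both tested stromal markers, Col1a1 and Col1a2, were called higher in TFR than in Treg cells (adjusted p = 0.016 and 0.0342), in which neither was well above background. The part of these cells in the values was not tested.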

How the data were processed

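RNA from sorted pLN T cells was hybridized to one-color Agilent arrays, 1 array for each of 4 cell types at d12 and d25 (8 arrays). The authors scanned the slides with Agilent Feature Extraction 10.7.3.1 and deposited the background-corrected intensity of every spot, and a second deposited table holds intensities normalized by the authors. The main values repeat their steps from the spots (geometric mean of the retained spots of a probe, quantile normalization, scaling of the 75th percentile to 1500, floor 20) and correlated with the deposited table with r of 0.9994 on each array. Of the spots, 86.45% to 89.18% were retained, and the 75th percentile before scaling was 482 to 878. The number of arrays limits the precision, and quantile normalization assumes like distributions in all cells.

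The probe with the highest log2 mean stood for its gene, and a gene was tested if this probe was well above background (more than 50% of its spots) in both arrays of 1 or more cell types. Differences were fitted in limma 3.58.1 (R 4.3.3) with additive terms for cell type and day on all 8 arrays, leaving 3 residual degrees of freedom. The procedure was tested on simulated data. No cell type was measured more than once on a day, so p-values measure the spread between these arrays. A change between the days that the 4 cell types share is taken up by the day term. One that differs between cell types is included in this spread. Gene and marker lists, like the 6 genes, were chosen with earlier results of these data known. Of the listed genes, 2 are not reported here and were left out of the counts and sums. In each list the named genes illustrate counts that are given in full. Alternatives were 18 changes of the processing, test or arrays and the other measurable Cd44 probe. Leaving out an array of a compared cell type left 1 array of it, and fewer of all genes were then called in that comparison. Probe positions are those of the files (NCBI37).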

Additional observations from a re-analysis of the deposited data

Results flagged for a closer look

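The follicular change differed between Foxp3+ and Foxp3− cells for S1pr2 and Cd44 by a direct test of the difference. TFH cells were sorted as GL7+ and TFR cells as GL7+/−, so Foxp3 and the GL7 gate cannot be told apart here. The same holds for every comparison of TFR with TFH cells. For S1pr2 the change in TFR cells minus that in TFH cells was -3.35 ± 0.22 on the log2 scale (limma, adjusted p = 0.00444), with 1.27 against 4.63 and the same direction on both days. For Cd44 it was -1.59 ± 0.11 (adjusted p = 0.00532), with 0.97 against 2.56, and -1.69 with the probe at the 3′ end (adjusted p = 0.031). Both were lower in TFR than in TFH cells, and Treg minus naïve CD4 T cells gave 0.63 for S1pr2, which did not pass the test (adjusted p = 0.0757), and 1.11 for Cd44 (adjusted p = 0.00317).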

How the results depend on the processing

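Among 140 recomputed counts of called genes, 123 stayed within 1.5 times the reported count. For TFR against TFH cells the count of 4 fell to 2 without a filter on dim probes, without a day term and by Tukey's test, and to 1 with slide as a block. Over all genes the calls fell as well, from 3486 of 15764 to 1649 of 29924 without the filter. They were 2213 without a day term, 2595 by Tukey's test and 1349 with slide as a block. The count of the 6 genes also fell when single arrays were left out, most without the TFH array of d25, which leaves 1 TFH array. For TFR against Treg cells the count of 5 fell to 3 without a filter on dim probes, where the calls over all genes fell from 6249 of 15764 to 3870 of 29924. For Treg against naïve CD4 T cells it was between 1 and 2 when single arrays were left out, with 2 without either TFH array. The count of 2 for the difference between both follicular changes was 4 with 75th percentile scaling alone, with normexp background correction, with genes well above background on all 8 arrays and with an intensity trend in eBayes, the added genes being S1pr1 and Cd69. Over all genes the 1339 calls of 15764 became, in this order of settings, 1456, 1620, 1112 of 13299 and 1816. The count of 0 between the days was 1 (Cd69) with the last 3 of these settings, where 797 to 1095 of all genes were called instead of 11, and 2 of the 6 genes had p below 0.05 before adjustment.

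Directions turned only for differences that were not called. The S1pr1 difference between Treg and naïve CD4 T cells was 0.10 with slide as a block and ranged from -0.17 to 0.12 when single arrays were left out. In the same omissions S1pr4 between these cells ranged from -0.43 to 0.078, Gpr183 between TFR and naïve CD4 T cells from -0.32 to 0.12, the difference of the follicular changes of Gpr183 from -0.32 to 0.11, and Cd69 between TFH and Treg cells from -0.43 to 0.052. The difference of Cd44 between d25 and d12 was 0.64 with the probe at the 3′ end. The cause was not tested. The probes of the variable stretches of Cd44 were too dim to give an alternative. The day term of the fit compares the cell types within each day. No further pairing was possible because the arrays carry no replicate numbers besides the day.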
